A study of Macaca mulatta with 48 samples.

Results

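The cells described here are the 461 cells, of 112150 testis cells that passed the filter in 12 single-cell RNA libraries of the rhesus monkey, in which transcripts of cytotoxic granule genes were found and transcripts of the T cell receptor's CD3 chains were not. A cell was taken when it held at least 1 UMI, the tag that counts 1 captured transcript, of at least 2 of GNLY, NKG7 and GZMB, and no UMI of CD3D, CD3E or CD3G, with under 5% of its UMIs from the spermatid genes PRM1, PRM2 and TNP1. They are called CD3-negative cytotoxic cells below. The working name for such cells is natural killer-like, and the genes that were not used in the choice bore it out only in part. The study asked how age and season bear on the testis. It took a testis from each of 6 male monkeys in August, outside the breeding season, and the other testis of the same monkey in December, in the breeding season. The monkeys were 2 prepubertal animals of 1 year, 2 adults of 6 years and 2 aged animals of 22 years, with no other treatment named in the labels, and are numbered 1 and 2 within each age. The labels give 48 samples in 6 age and season groups and name no count matrix, so each of the 12 matrices was placed by the study's own sheet of libraries.

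Natural killer cells are lymphocytes of the innate immune system that kill stressed, infected or altered cells without an antigen receptor of their own. They store perforin, granzymes and granulysin in granules, carry activating receptors that signal through small adaptor proteins such as TYROBP, and have no CD3 at their surface. Cytotoxic T cells use the same granules but recognise their target through the T cell receptor, whose signal passes through CD3. The testis shelters its germ cells from immune attack, and its resident immune cells lie mostly in the tissue between the tubules.

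In 11 of the libraries, 23072680 to 43405583 UMIs were counted, with medians of 1775 to 3272 UMIs per barcode. The lowest of these medians was found in aged animal 1's non-breeding testis. The library of the breeding testis of adult animal 2 was far smaller. It held 959819 UMIs in 333 barcodes, of which 117 passed, with a median of 870 UMIs and 17.6% mitochondrial UMIs per barcode before filtering, and 46 of the 117 barcodes also occurred in the breeding library of aged animal 1. No CD3-negative cytotoxic cell came from it, so no level of these cells rests on it, while 1 of its cells counts among the other CD3-positive cells and 53 among the cells of no class of adult animal 2. Of the 461 cells, 11 had a barcode that occurred in another library, and no barcode was a CD3-negative cytotoxic cell in both of its libraries. The non-breeding library of aged animal 1 stood apart in the other direction: it gave 375 of the 461 cells (81.3%), and the other libraries together gave 86.

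GNLY encodes granulysin, a membrane-damaging granule protein, NKG7 a granule membrane protein and GZMB the protease granzyme B. These 3 genes (ENSMMUG00000063583, ENSMMUG00000015369 and ENSMMUG00000014381) chose the cells, and their values are given only to describe them. All 3 were found in 148 cells, GNLY with GZMB in 155, NKG7 with GZMB in 99 and GNLY with NKG7 in 59. In UMIs per 1000000 UMIs (CPM), summed per animal, GZMB was at 3474 and 898 in prepubertal animals 1 and 2, 3657 and 392 in the adults, and 1251 and 1592 in the aged animals. GNLY was at 721, 3047, 2313, 190, 692 and 1385 CPM in the same order. Adult animal 2 was the lowest for both genes. In that animal 14 of the 28 cells held exactly 2 UMIs of the 3 genes, against 112 of 461 in all, while 272 of the 461 held 4 or more.

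Pooled over libraries, the cells were shallow. Their median was 1448 UMIs and 1054 genes per cell, with a range of 500 to 28607 UMIs. Cells with at least 2 of the same 3 genes that did hold a CD3 UMI, called CD3-positive cytotoxic cells here (507 cells), had a median of 1472 UMIs. The remaining CD3-positive cells (2705) were deeper, at 4107 UMIs, and so were the cells of no class, at 2710 (84716 cells). The latter had no CD3 UMI, fewer than 2 of the granule genes and under 5% spermatid RNA. These pooled gaps did not hold alike within libraries. Aged animal 1's non-breeding testis had medians of 1453 UMIs in the CD3-negative cytotoxic cells, 1665.5 in the remaining CD3-positive cells and 1581 in cells of no class. The same medians were 3620, 5117 and 3014 in adult animal 2's non-breeding testis, and 1304, 5323 and 3234 in that of adult animal 1. Doublets were called in 57 of the 461 cells (12.4%), against 7.69% of the CD3-positive cytotoxic cells, 7.22% of the cells of no class, 11.9% of the other CD3-positive cells and 12.1% of the spermatid-rich cells. Calls were set per library by its number of cells. In aged animal 1's non-breeding testis they made up 12.5% of these cells, 9.02% of the CD3-positive cytotoxic cells and 9.28% of the cells of no class.

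The share of these cells was far higher in 1 library than in any other that held them. In the non-breeding library of aged animal 1 they made up 2.91% of the cells, with a 95% exact (Clopper-Pearson) interval of 2.63% to 3.22%. The non-breeding library of adult animal 2 came next with 28 cells (0.272%). In the other adult libraries, 10 cells (0.108%) came from the non-breeding and 6 (0.0639%) from the breeding testis of animal 1. The breeding library of animal 2 had 0 of 117 cells. Its exact upper limit of 3.10% lies within the interval of aged animal 1's non-breeding library. In the aged group, animal 1 had 10 cells (0.135%) in its breeding testis, and animal 2 had 17 (0.129%) in its non-breeding and 1 (0.00927%) in its breeding testis. The prepubertal libraries had 2 to 4 cells each, or 0.0202% to 0.0555%. Intervals on shares cover counting error only.

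**Figure D1:**
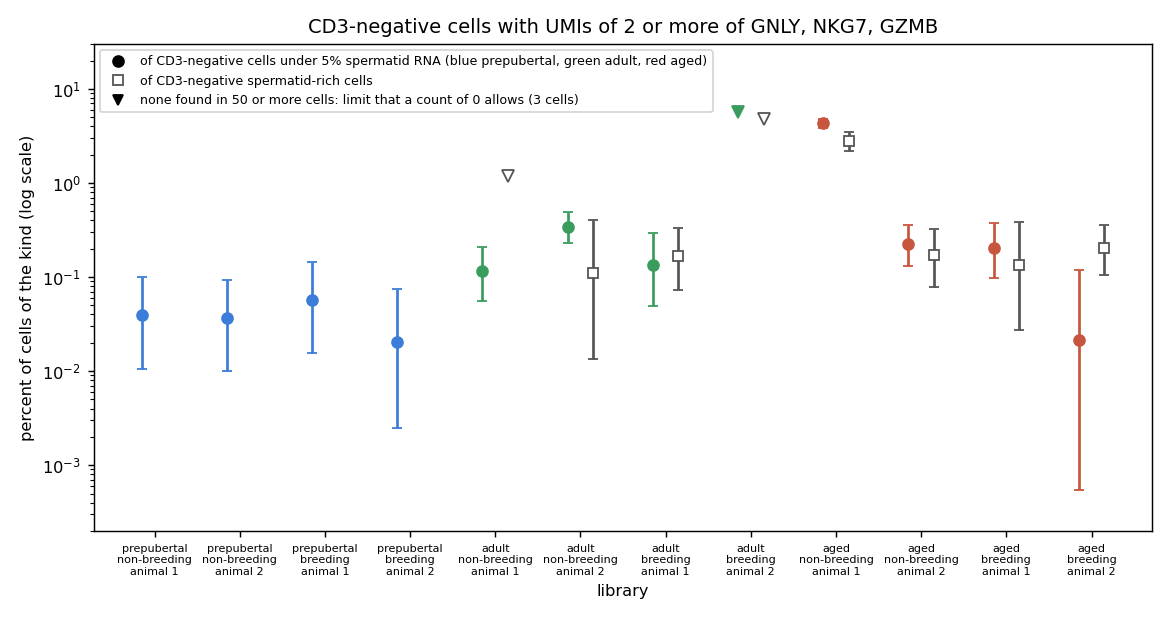
Share of CD3-negative cells with UMIs of at least 2 of GNLY, NKG7 and GZMB in each library, as percent of 2 kinds of CD3-negative cell (log scale), with 95% exact intervals. Filled circles are cells under 5% spermatid RNA (blue prepubertal, green adult, red aged), open squares are spermatid-rich cells of the same library, and triangles, for a count of 0, stand at 3 cells over the cells of the kind. Among circles and squares, the non-breeding library of aged animal 1 lies highest for both kinds, at 4.30% and 2.80%. The triangles of adult animal 2's small breeding library lie higher, at 5.66% and 4.84%. In the 5 other adult and aged libraries in which both kinds met the rule, the intervals overlap.

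With both testes of an animal added, the share was 0.0453% and 0.0282% in the prepubertal animals, 0.0859% and 0.269% in the adults, and 1.90% and 0.0753% in the aged animals. The order was aged animal 1, adult 2, adult 1, aged 2, prepubertal 1 and prepubertal 2. From adult animal 1 downward, neighbours in this order had overlapping intervals. The age groups did not separate the animals: aged animal 2 lay below both adults, and aged animal 1 above both.

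Neither age comparison could reach significance with 2 animals per age, where the smallest two-sided exact permutation p is 0.333. The mean log2 share of aged animals was 1.30 above that of adults (exact permutation p = 1, n = 2 against 2), and without aged animal 1 it was 1.01 below it (the log2 difference was -1.01). Adults lay 2.02 above prepubertal animals on the same scale, with both adults above both prepubertal animals (exact permutation p = 0.333, n = 2 against 2).

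Season was compared within each animal. All non-breeding testes were taken in August and all breeding ones in December, so season cannot be told apart from date or order of removal. The study names compensation after the loss of 1 testis, and change over time other than season, as effects it could not fully exclude. The log2 share in the breeding testis minus that in the non-breeding testis was 0.54 and -0.65 in the prepubertal animals, -0.71 and 0.61 in the adults, and -4.36 and -3.26 in the aged animals, so that 4 of the 5 animals other than adult animal 2 had the lower share in the breeding season. The positive value of adult animal 2 comes from a count of 0 among the 117 cells of its small library, to which 0.5 was added as to every count, so it shows neither a rise nor a fall, and that of aged animal 2 rests on 1 breeding cell. Without adult animal 2 the mean was -1.69 (exact permutation p = 0.125, n = 5). With spermatid-rich cells kept, aged animal 2 had 26 of 13128 non-breeding and 13 of 10787 breeding cells, and the mean over the 6 animals was -0.68 (exact permutation p = 0.531). Under the rule as given the mean was -1.31, and it did not pass a two-sided exact sign-flip permutation test (p = 0.1875, n = 6, smallest possible p 0.03125). Whether the difference varied with age was not tested. When all 3 granule genes were required, the mean was -0.01 (exact permutation p = 0.969).

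Free RNA in droplet libraries can put transcripts of 1 cell into the droplet of another. The same rule was therefore read in CD3-negative cells rich in spermatid RNA and in those with stromal RNA. A leukocyte with free spermatid RNA above the 5% cut would count as spermatid-rich, so these shares cannot measure free RNA alone. In the non-breeding library of aged animal 1, 375 of 8726 CD3-negative cells under 5% spermatid RNA met it (4.30%, interval 3.88% to 4.74%, median 1575 UMIs). Among 2645 spermatid-rich cells of that library it was met by 74 (2.80%, 2.20% to 3.50%, median 2133 UMIs). Of the 8726 cells, 2264 held 3 or more UMIs of the stromal genes DCN and MGP, and 56 of them met it (2.47%, 1.87% to 3.20%). These 56 are among the 375, so this last share is of a part of the first group. The interval of the first share lay above those of the other two.

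In the 5 other adult and aged libraries where cells under 5% spermatid RNA and spermatid-rich cells both met the rule, the shares' intervals overlapped. The shares were 0.135% against 0.168% in the breeding testis of adult animal 1, 0.226% against 0.172% in the non-breeding testis of aged animal 2, 0.204% against 0.133% in the breeding testis of aged animal 1 and 0.0216% against 0.204% in the breeding testis of aged animal 2. In the breeding libraries of adult animal 1 and aged animal 2 the share was thus not above that of the spermatid-rich cells. All of their 6 and 1 cells held a UMI of PTPRC, CD52 or CORO1A, leukocyte genes picked after the values were seen. The 2 non-breeding adult libraries had 0.115% against 0 of 253 cells (exact upper limit 1.45%), and 0.344% against 0.111%. In the latter, GNLY alone was found in 4.68% of CD3-negative cells and in 5.71% of spermatid-rich cells. Spermatid-rich cells that met the rule also carried leukocyte RNA: the 74 of aged animal 1 held 311 CPM of PTPRC, 275 of CD52 and 161 of CCL5, against 44.8, 26.0 and 5.33 CPM in those with none of the 3 genes. The 8 in adult animal 1's breeding library held 659 CPM of PTPRC and 878 of CD52, and the 12 in aged animal 2's breeding library 249 and 2073. Such RNA was thus not particular to the cells under 5% spermatid RNA. These 8 and 12 had medians of 950.5 and 766 UMIs, against 2649 and 1861 in spermatid-rich cells with none of the 3 genes. In the non-breeding libraries of aged animals 1 and 2 the medians were 2116 and 3285 against 2141 and 2133. The 2 shares of a library thus do not separate free RNA from leukocytes.

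The choice of a cut on 2 genes can be read from the cells on each side of it. PTPRC, the pan-leukocyte phosphatase CD45, was at 434 CPM in the 148 cells with all 3 genes, 216 in the 112 with exactly 2 UMIs, 52.0 in the 1947 CD3-negative cells with 1 of the 3 genes and 32.1 in the 82769 with none. At least 1 UMI of PTPRC, CD52 or CORO1A, leukocyte genes picked for this purpose after the values were seen, was found in 87.2%, 61.6%, 21.5% and 10.2% of these cells. These sums pool libraries that differ. Within the non-breeding library of aged animal 1, with 120, 86, 772 and 7579 such cells, PTPRC was at 403, 396, 169 and 49.0 CPM, and 84.2%, 70.9%, 45.2% and 13.8% held a leukocyte gene. There the cells with all 3 genes and those with exactly 2 UMIs stood close together for PTPRC and apart for CCL5 (309 against 100 CPM), GZMA (128 against 31.7) and KLRB1 (228 against 148). The plasma cell gene IGKC (47.0 against 8298 CPM) and the globin gene HBE1 (1393 against 6583) were higher in the latter. Of all IGKC and HBE1 UMIs in the 375 cells of this library, the top 10 cells for each gene held 99.2% and 58.0%. A few cells can thus carry these levels. In all, 359 of the 461 cells (77.9%) held 1 of these leukocyte genes, with 298 of 375 in the non-breeding library of aged animal 1 and 13 of 28 in that of adult animal 2. Of the 14 cells of adult animal 2 with exactly 2 granule gene UMIs, 7.14% held one.

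The share of cells without CD3 was read at 4 ranges of depth. Among the 774 cells with at least 2 granule genes in the non-breeding library of aged animal 1, 48.4% had no CD3 UMI, and the share was 48.6%, 47.1%, 51.6% and 51.1% in cells from 300, from 1000, from 2000 and from 4000 UMIs upward, each range ending where the next began. In the other libraries together it was 86 of 194 (44.3%), and 47.3%, 30%, 36.4% and 58.3% in the same ranges of depth. The intervals of the 4 ranges overlapped within each set of libraries. Depth here was that of the barcode. In adult animal 2, the 15 of 28 cells without a UMI of PTPRC, CD52 or CORO1A held 85.3% of the UMIs. A share by depth therefore cannot show how often CD3 was missed. CD3 was itself sparse in the cells that had it: 293 of the 507 CD3-positive cytotoxic cells (57.8%) held exactly 1 CD3 UMI.

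**Figure D2:**
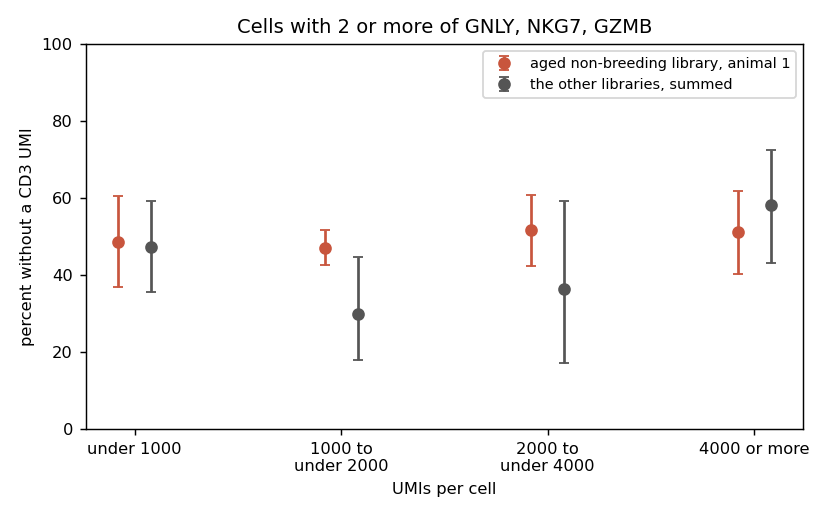
Percent of cells with at least 2 of GNLY, NKG7 and GZMB that had no CD3 UMI, by UMIs per cell, in the non-breeding library of aged animal 1 (red) and in the other libraries summed (grey), with 95% exact intervals. The red points lie between 47.1% and 51.6% at every depth.

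The granule genes outside the rule were found in most animals. PRF1, the pore-forming protein perforin, was at 197, 117, 125, 5.77, 65.9 and 103 CPM in prepubertal animals 1 and 2, adults 1 and 2 and aged animals 1 and 2. GZMA, a granzyme with a preference for basic residues, was at 65.6, 547, 500, 11.5, 81.8 and 145 CPM. Both were lowest in adult animal 2, as GNLY and GZMB were. A level summed per animal also counts cells with no UMI of PTPRC, CD52 or CORO1A. In adult animal 2, 15 of the 28 cells were of this kind and held 85.3% of the 173328 UMIs summed, against 59.9% in prepubertal animal 2, 52.4% in aged animal 2, 21.3% in aged animal 1 and 0% in prepubertal animal 1 and adult animal 1. Their part in the low levels of adult animal 2 was not tested. GZMK, a granzyme of memory-type T cells and some natural killer cells, was at 277 CPM in aged animal 1, where 144 of 385 cells held it, and at 0 to 125 CPM in the other 5 animals, with 1, 1, 4, 3 and 0 UMIs. Genes were also ranked by their ratio over the CD3-negative cells of the library with none of the 3 genes, with 20 CPM added to both sides, an order that depends on the amount added. GZMK came first in the non-breeding library of aged animal 1 (281 against 8.9 CPM), followed by the chemokine gene CCL5 (211 against 6.4) and the C-type lectin gene KLRB1 (203 against 10.9).

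Genes of natural killer receptors and adaptors were uneven. TYROBP, the adaptor of activating natural killer receptors that is also used by myeloid cells, was at 328 and 156 CPM in the prepubertal animals, 750 and 5.77 in the adults, and 22.7 and 186 in the aged animals, from 5, 4, 24, 1, 20 and 9 UMIs. In adult animal 1, 11 of 16 cells held it, against 14 of 385 in aged animal 1. HCST, the adaptor DAP10 of the receptor NKG2D, was found in 23.0% of all 461 cells, KLRB1 in 26.5%, KLRD1, which encodes CD94, in 15%, NKG2D in 12.8% and KLRF1, which encodes NKp80, in 11.3%. KLRD1 was not particular to lymphocytes here, with 34.9 CPM in cells of no class against 80.0 CPM. Other listed genes had few UMIs in the 461 cells, of which 385 came from aged animal 1. NCR1, which encodes NKp46, had 8 UMIs (6.81 CPM against 0.706 in cells of no class), and FCGR3, the low-affinity Fc receptor CD16, had 25 (21.3 against 0.947). The transcription factor genes TBX21 and EOMES, used by natural killer and cytotoxic T cells, had 5 and 12 UMIs (4.26 against 0.111 and 10.2 against 0.195 CPM). These levels are pooled over animals that gave different numbers of each kind of cell, and the genes were sparse in both. FCER1G, an adaptor also of myeloid cells, had 1 UMI, and NCAM1, or CD56, was at 20.4 CPM against 14.4. In the order of animals given for TYROBP, the listed natural killer receptors and adaptors summed to 1704, 1250, 2219, 179, 674 and 517 CPM. In CD3-positive cytotoxic cells they summed to 1230, 1911, 798, 427, 844 and 784 CPM, lower in prepubertal animal 1 and adult animal 1 and higher in the other animals. The list was thus not particular to the CD3-negative cells. PTPRC, CD52 and CORO1A together differed in the same direction in each animal. They were at 2884, 820, 2125, 202, 880 and 848 CPM in the CD3-negative cells. In the CD3-positive cytotoxic cells they were at 2603, 3349, 1351, 623, 1190 and 1569 CPM. The part of leukocyte RNA in the differences of the receptor list was not tested.

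T cell genes were found in the same cells. TRAC, the constant region of the T cell receptor alpha chain, was at 656, 0, 31.3, 23.1, 116 and 0 CPM in the same order of animals, from 10, 0, 1, 4, 102 and 0 UMIs. THEMIS, which acts in T cell development, was at 65.6, 0, 93.8, 28.9, 96.5 and 0 CPM. Both genes were at 0 in prepubertal animal 2 and aged animal 2, whose cells did hold TYROBP. In aged animal 2 both were also at 0 in the 7 CD3-positive cytotoxic cells, while in prepubertal animal 2 the 27 such cells held 33 TRAC and 16 THEMIS UMIs. IL7R, the interleukin 7 receptor of resting T cells, was found in 90 of 385 cells of aged animal 1 and in 3 cells of all other animals. CD8A, carried by cytotoxic T cells and in macaques also by many natural killer cells, was at 0 in prepubertal animal 2 and at 5.77 to 125 CPM elsewhere, and CD4 had 12 UMIs in all 461 cells.

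**Figure D3:**
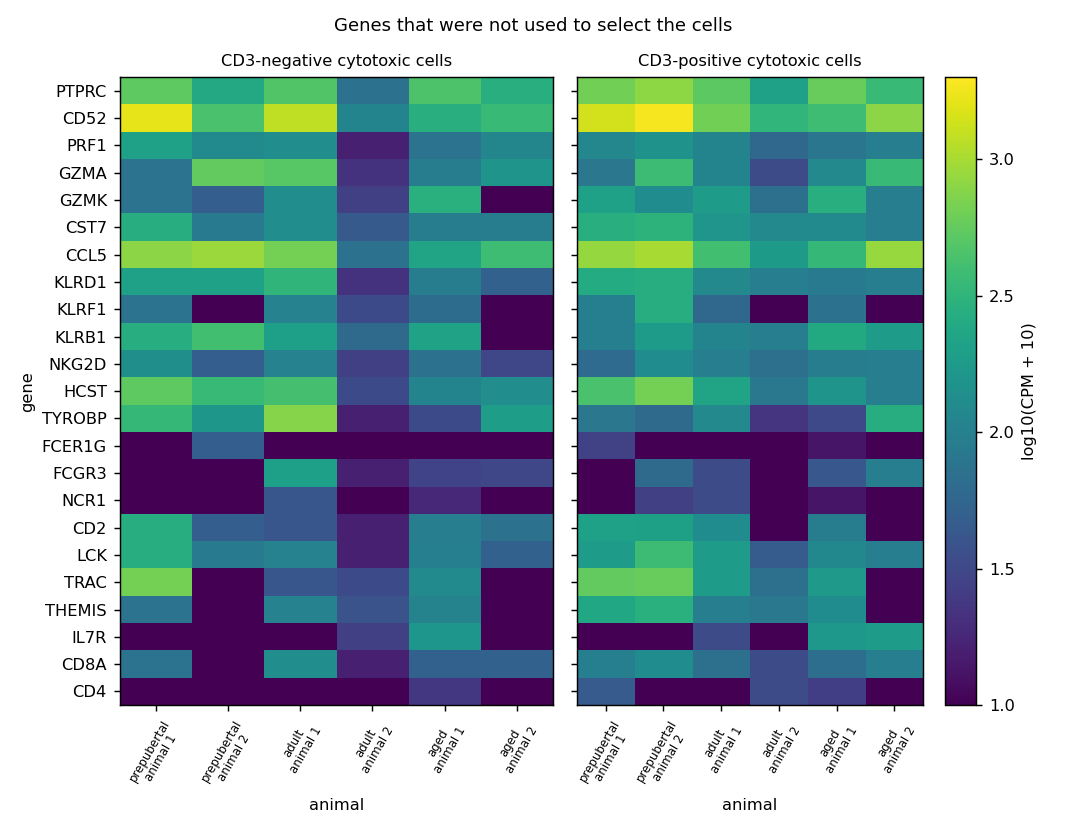
Levels of 23 genes that were not used to choose the cells, as log10(CPM + 10) of UMIs summed per animal, in CD3-negative (left) and CD3-positive cytotoxic cells (right). Columns are the 6 animals, with 6 to 385 cells on the left and 7 to 405 on the right. CD52, PTPRC and CCL5 are among the brightest rows on both sides, TYROBP is brightest on the left in adult animal 1, and TRAC is at 0 on the left in prepubertal animal 2 and on both sides in aged animal 2.

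To see whether T cell and natural killer genes fell in the same cells, a set of 6 T-restricted genes (TRAC, CD5, CD6, CD28, TRAT1 and THEMIS) and a set of 5 natural killer-leaning genes (TYROBP, FCER1G, NCR1, KLRF1 and FCGR3) were read per cell. Both sets were picked after the values were seen. Of the 461 cells, 185 (40.1%) held a T-restricted gene, 97 (21.0%) a natural killer-leaning gene, 29 both and 208 neither. The natural killer-leaning genes outnumbered the T-restricted ones in adult animal 1 (12 against 4 of 16 cells), prepubertal animal 2 (2 against 0 of 6) and aged animal 2 (5 against 0 of 18). The CD3-positive cytotoxic cells of aged animal 2 had the same order (3 against 0 of 7). The order was the other way in prepubertal animal 1 (2 against 5 of 8), adult animal 2 (4 against 8 of 28) and aged animal 1 (72 against 168 of 385). CD3-positive cytotoxic cells held a T-restricted gene in 53.5% and a natural killer-leaning gene in 22.9% of cells, and cells of no class in 2.16% and 1.58%. With each cell thinned to 1000 UMIs, the 2 shares were 29.2% and 12.6% of 390 CD3-negative cytotoxic cells (71 shallower cells left out), 39.3% and 14.9% of 430 CD3-positive ones (77 left out) and 0.872% and 0.759% of the cells of no class.

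**Figure D4:**
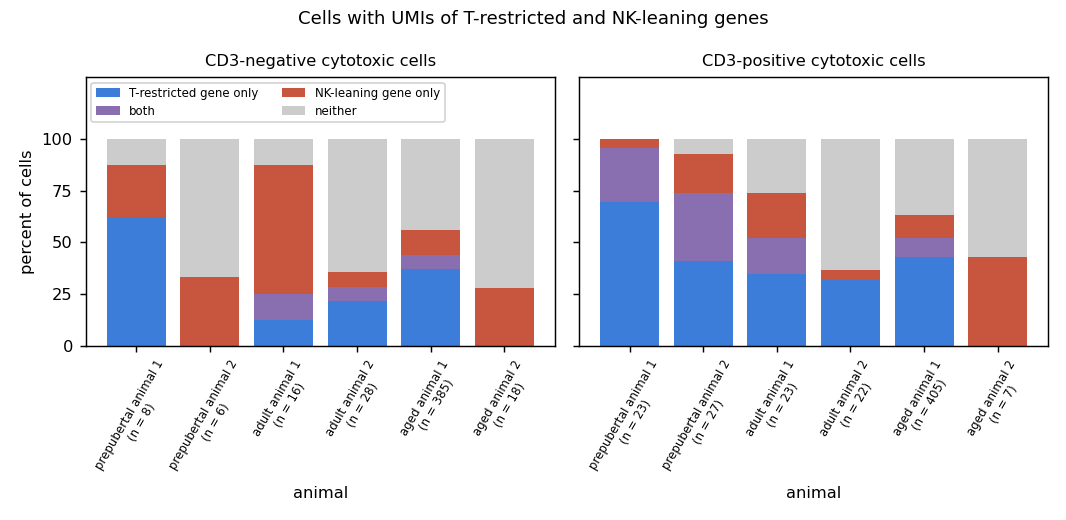
Percent of cells of each animal with UMIs of T-restricted genes only (blue), natural killer-leaning genes only (red), both (purple) or neither (grey), in CD3-negative (left) and CD3-positive cytotoxic cells (right), with the number of cells below each bar. On the left, aged animal 2 and prepubertal animal 2 have no blue or purple, and the red part is largest in adult animal 1. On the right, aged animal 2 has no blue or purple either.

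CD3-negative and CD3-positive cytotoxic cells were compared on UMIs summed per animal in the 3 animals with at least 10 of each, adult animals 1 and 2 and aged animal 1 (16 and 23, 28 and 22, and 385 and 405 cells). By edgeR's quasi-likelihood test with the animal as a term, 0 of 3040 genes tested passed the adjusted p of 0.05 (0%), 79 had an unadjusted p under 0.05, and DESeq2 called none. Without adult animal 1, adult animal 2 or aged animal 1 the count was 5, 4 and 4 genes. TRAC was lower in the CD3-negative cells in each of the 3 animals, with 1 UMI in those of adult animal 1, at 31.3, 23.1 and 116 CPM against 172, 61.0 and 161, a log2 fold change of -0.78 ± 0.39 (SE; edgeR adjusted p = 0.933, n = 3 animals). Outside the fit, TRAC was at 656 against 553 CPM in prepubertal animal 1, 0 against 579 in prepubertal animal 2 and 0 on both sides in aged animal 2. CST7, an inhibitor of granule proteases, was at 125, 34.6 and 81.8 CPM against 147, 110 and 115 (-0.67 ± 0.38, edgeR adjusted p = 0.933, n = 3). PTPRC, CD52 and CORO1A together were at 2125, 202 and 880 CPM against 1351, 623 and 1190, so leukocyte RNA was also lower in adult animal 2 and aged animal 1. In adult animal 2, CD3-negative cells without any of these 3 genes held 85.3% of the UMIs summed. The part of this in the levels of TRAC and CST7 was not tested. GZMA, GZMK and KLRB1 differed by 0.28 ± 0.49, -0.17 ± 0.32 and -0.16 ± 0.30. None of the 6 cytotoxic granule genes and 4 natural killer receptor or adaptor genes tested passed, with medians of -0.13 and -0.23 beside 0.05 over all genes tested. A p that misses the threshold does not show that the 2 kinds of cell were alike.

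Against the CD3-positive cells with fewer than 2 of the granule genes, 94 of 10102 genes passed the same test (0.931%), all higher in CD3-negative cytotoxic cells, in 4 animals with 16, 28, 385 and 18 of the cells against 374, 308, 956 and 253. The comparison cells were low in leukocyte RNA: the pan-leukocyte list summed to 40.5, 35.9, 328 and 13.6 CPM in them in adult animals 1 and 2 and aged animals 1 and 2, beside 23.5, 12.3, 68.5 and 8.26 in cells of no class and 2125, 202, 880 and 848 in CD3-negative cytotoxic cells. The part of this gap in the genes called was not tested. The classes were chosen on granule and CD3 genes of these same cells, and genes of the same cells can move with them. The comparison cells were also deeper by median, least so in aged animal 1's non-breeding testis (1665.5 against 1453 UMIs). Of all 2705 of them, 1918 (70.9%) held CD3E UMIs with none of CD3D or CD3G, against 50 of 507 CD3-positive cytotoxic cells (9.86%). When only comparison cells with a CD3D or CD3G UMI were used, 0 of 3229 genes passed in edgeR (0%), with 4 at an unadjusted p under 0.05. In that fit the log2 fold changes of CCL5, HCST and SRGN were 1.83, 1.43 and 0.94, below the values given for them in the next paragraph, and 10 of the 25 genes named below were tested at all. The number called was 46 without adult animal 1, 38 without aged animal 1, 51 without aged animal 2 and 131 without adult animal 2. It was 248 when 4 granule gene UMIs were required, with 66.9% of them higher, 12 in cells with 1000 or more UMIs and 10 in sums of at least 20 cells. The fit of 1000 or more UMIs also lost adult animal 1, and that of 20 cells lost adult animal 1 and aged animal 2, with too few cells left.

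Within these limits, 9 of 12 listed cytotoxic granule genes passed the filter on low counts and 5 were higher. A gene near 0 in the comparison cells could pass that filter only through the cells in which it was high, so counts of listed genes that were higher are a description here. GZMA was at 500, 11.5, 81.8 and 145 CPM in adult animals 1 and 2 and aged animals 1 and 2, against 1.89, 0.544, 10.3 and 0 CPM in the comparison cells, 5.12 ± 0.58 on the log2 scale. PRF1 was higher by 3.75 ± 0.63, CST7 by 3.80 ± 0.59, the granule proteoglycan gene SRGN by 3.09 ± 0.44 and GZMK by 2.64 ± 0.57, with the last at 0 UMIs in the cells of aged animal 2. Of 25 listed natural killer receptors and adaptors, 8 passed the filter and 6 were higher: TYROBP by 3.83 ± 0.59, KLRF1 by 3.30 ± 0.68, HCST by 3.20 ± 0.48, NKG2D by 3.19 ± 0.65, KLRB1 by 2.99 ± 0.52 and KLRD1 by 2.19 ± 0.51. CCL5 was at 656, 63.5, 209 and 372 CPM against 6.06, 9.80, 39.4 and 2.72, higher by 4.19 ± 0.43.

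Of 9 T cell genes tested against the same cells, 4 were higher: CD7, shared by T and natural killer cells, by 4.37 ± 0.78, CD8A by 3.09 ± 0.68, the adhesion receptor CD2 by 2.29 ± 0.65 and the adaptor SKAP1 by 1.77 ± 0.40. LCK, THEMIS and, from a separate list of receptor constant regions, TRAC did not pass (2.07 ± 0.63, 1.68 ± 0.57 and 1.34 ± 0.59). Of 4 listed transcription factor and cytokine receptor genes tested 2 were higher, as were 2 of 5 trafficking genes and 2 of 3 cytokine genes. These were ID2, a regulator needed by natural killer cells (2.75 ± 0.47), IL12RB2 of the interleukin 12 receptor (2.23 ± 0.55), the integrin gene ITGB2 (3.19 ± 0.60), the activation and residency marker CD69 (2.27 ± 0.48), CCL5 (above) and CCL3 (2.39 ± 0.67). The leukocyte genes CD52, CORO1A, GIMAP7 and S100A4 were higher by 3.96, 3.74, 3.65 and 3.40. No gene of the lists for B and plasma, myeloid, Sertoli, stromal, peritubular, endothelial or germ cells, for proliferation or for immediate early response passed, and no mast or erythroid gene was tested.

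**Figure D5:**
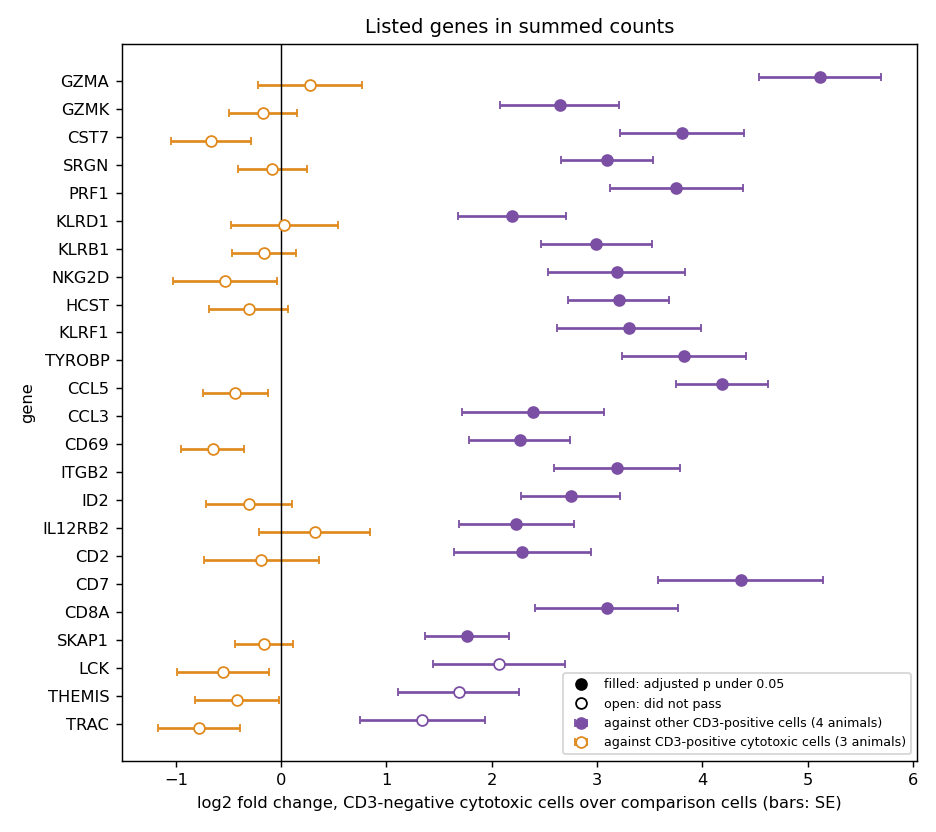
Log2 fold change, with its SE, of 24 listed genes in CD3-negative cytotoxic cells over other CD3-positive cells (purple, 4 animals) and over CD3-positive cytotoxic cells (orange, 3 animals). Filled points passed an adjusted p of 0.05 in edgeR. All purple points lie between 1 and 6, and the orange points between -1 and 1 are all open.

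With age, no gene of the CD3-negative cytotoxic cells passed the test between the 2 aged and the 2 adult animals (0 of 2891 tested, 0%, in edgeR, with 5 at an unadjusted p under 0.05 and 0 in DESeq2). The animals of an age were far apart: TYROBP was at 750 and 5.77 CPM in the adults and 22.7 and 186 in the aged animals, and GZMK at 125 and 17.3 against 277 and 0. The sum of adult animal 2 came mostly from cells without a leukocyte gene, as given above. The log2 fold changes of TYROBP and GZMK were -2.31 ± 1.67 and 1.58 ± 1.46. Without adult animal 1 the first was 3.47 and 23 genes passed, and without adult animal 2, 190 genes passed, in fits where the lone adult is assumed to vary like the aged animals.

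With season, 0 of 2295 genes passed in edgeR (0%, 11 at an unadjusted p under 0.05, 0 in DESeq2). The breeding side of that comparison was 1 library with 10 cells, that of aged animal 1, against the non-breeding libraries of both aged animals with 375 and 17 cells. The non-breeding libraries of both adults, with 10 and 28 cells, also entered the fit of 5 sums. With 1 breeding library the spread came from the other groups and the animal could not be a term, so these counts say nothing about season. Without either adult non-breeding library, 6 genes passed, all lower. CD69 was at 699 CPM in the 10 breeding cells and at 153 and 129 CPM in the non-breeding aged libraries, from 13, 132 and 6 UMIs. No TYROBP UMI was found in the 10 cells, which held 18598 UMIs in all. These values are a description of few UMIs.

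RNA of other testis cells was present in the same barcodes. The spermatid list holds PRM1, PRM2 and TNP1, whose share of UMIs the rule capped in these cells and in those of no class. Its sums are therefore given only to describe the cells. Spermatid genes summed to 131 and 0 CPM in the prepubertal animals, 6658 and 13443 in the adults and 23663 and 27164 in the aged animals. In cells of no class they summed to 104, 1.06, 5674, 8297, 19095 and 15226 CPM. Sertoli genes summed to 4655, 5156, 3219, 294, 348 and 103 CPM beside 8479, 8556, 4156, 1781, 267 and 246. The Sertoli list was highest in both prepubertal animals and adult animal 1 in both kinds of cell, while adult animal 2 was low in these cells and not in the cells of no class. The 13 myeloid genes were all at 0 in both prepubertal animals and summed to 31.3 to 291 CPM elsewhere, below their sum in cells of no class in each of the 6 animals. Immediate early genes such as FOS and JUN summed to 6490 and 3750 CPM in the prepubertal cells and to 294 to 1344 CPM in the others, beside 4862 and 5962 and 170 to 909 CPM in cells of no class.

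Blood and plasma cell RNA was highest in aged animal 1, where the erythroid list summed to 3856 CPM and the B and plasma cell list to 5193 CPM, against 0 to 125 and 62.5 to 248 CPM in the other 5 animals. HBE1, a globin gene, had 2656 UMIs in 149 of the 375 cells of its non-breeding library, at 3089 CPM in the rest of that library. IGKC, the immunoglobulin kappa constant region, had 4316 UMIs in 46 of these cells, of which the top 10 cells held 99.2% and 1 cell 1657, and no IGKC UMI was found in the cells of any other library. The part of this RNA in the levels and shares above was not tested.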

How the data were processed

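Cells of dissociated testis were read by droplet single-cell RNA sequencing. The authors made the deposited UMI counts per gene and barcode with Cell Ranger 9.0.0 on the Mmul_10 genome, per the labels. No source used here gives how intronic reads were counted, and the authors' removal of clusters with high free RNA scores, their doublet removal and integration were not applied here. Matrices were tied to age, season and animal by the study's sheet of libraries, since the labels name none. Of 26530 features, 9920 had no symbol and 565 of these were named from a RefSeq table.

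The filter asked for 300 genes or more, no more than 30000 UMIs, and mitochondrial UMIs (13 genes) of 3% or less, and 112150 of 112577 barcodes passed. Shares were compared over animals as log2((k + 0.5)/(n + 1)), k cells of n, by two-sided exact permutation tests. The testes of an animal were paired because the study names them as one animal's. Genes were tested with edgeR 4.0.16 (TMM, filterByExpr, quasi-likelihood test, Benjamini-Hochberg) on counts summed per animal or library from at least 10 cells, in R 4.3.3. Genes of the rule (granule, CD3, spermatid and mitochondrial) took part in the fits and the adjustment, and were left out of the numbers tested and called. DESeq2 1.42.0, other filters and leave-one-out fits were alternatives. Doublets were called with Scrublet in scanpy 1.11.5 as the top 0.8% of cells per 1000 cells, because its own threshold called 0% in some libraries. Thinning drew 1000 UMIs per cell. The gene fits alone were run on simulated sums, which shared 1 profile and a spread set in advance. They do not cover the spread between these animals or the other steps. Cells of 1 animal are not replicates, and 2 animals per age set the precision, together with libraries of 959819 to 43405583 UMIs.

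Members, gene lists (22 lists, 179 of 198 genes found) and tests were chosen with earlier results of these data known. Fold changes are named for listed genes and, among those called, the 10 largest in each direction. The columns hold no comparison made by the authors.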

Additional observations from a re-analysis of the deposited data

How the results depend on the processing

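The share comparisons kept their direction under every alternative run (4 or more granule gene UMIs, all 3 genes, thinned cells, no doublets, spermatid-rich cells kept, a leukocyte gene required), except that leaving out aged animal 1 turned aged minus adult to -1.01 (leave-one-out range -1.01 to 3.61). The small library alone was left out for aged minus adult, and its animal for season. The range was 1.21 to 2.83 for adult minus prepubertal and -1.69 to -0.695 for breeding minus non-breeding. The last was -1.31 with exact permutation p = 0.303 with no replicate block, that is, without pairing the testes of an animal. The last 2 share alternatives and the comparison cells with a CD3D or CD3G UMI were chosen after seeing the data.

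Genes called between CD3-negative and CD3-positive cytotoxic cells numbered 4 with no filter on low counts, 5 with 20 or more cells per sum, 3 in cells with 1000 or more UMIs, and 4 to 5 leaving out an animal. The fits of 20 or more cells and of 1000 or more UMIs both lost adult animal 1. The former is the same fit as that leaving this animal out. GZMA turned to -0.53 with 20 or more cells per sum, ranged from -0.53 (without adult animal 1) to 0.31 leaving out an animal, and to -0.78 in cells with 1000 or more UMIs, and KLRB1 to 0.19 with 4 or more granule gene UMIs. Against other CD3-positive cells the count was 10, 248 and 12 with 20 cells per sum, 4 granule gene UMIs and 1000 UMIs, 0 against cells with a CD3D or CD3G UMI, 38 to 131 leaving out an animal, and 1 with no replicate block. The fits of 20 cells per sum and of 1000 UMIs had fewer animals, as given above. Of 285 refits of the 25 genes named, 85 lost the call and 0 changed direction. Leaving out an animal gave 0 to 190 genes for age, with TYROBP from -3.67 to 3.47, the latter without adult animal 1. For season it gave 0 to 6 leaving out a library and 6 without doublets. The causes were not tested. The fits of 20 or more cells per sum for age and season, of 4 or more granule gene UMIs for season, with animal as a block for season and without the breeding library of aged animal 1 were not run, since too few sums were left.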

Other observations

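Trafficking genes gave a further view of the CD3-negative cytotoxic cells. CXCR4, which binds a stromal chemokine, was found in 13.7% of the 461 cells, against 13.4% of CD3-positive cytotoxic cells and 1.04% of cells of no class. CX3CR1, a receptor of circulating cytotoxic lymphocytes, had 19 UMIs in the 461 cells and 45 in the 507 CD3-positive cytotoxic cells (4.12% and 7.10% of cells), from 5 of the 6 animals in the former. CXCR6 and CXCR3 had 1 UMI each, as did CCR7, a lymph node homing receptor. ITGAE, the integrin CD103 of tissue-resident lymphocytes, was found in 16.7% of the cells but also in 20.9% of cells of no class, at 86.8 and 75.5 CPM. IFNG, the interferon of activated cytotoxic lymphocytes, was found in 6.07% of the 461 cells and 8.68% of the CD3-positive cytotoxic cells. The 6 proliferation genes summed to 393, 508, 1563, 842, 975 and 1096 CPM in prepubertal animals 1 and 2, adults 1 and 2 and aged animals 1 and 2, beside 691, 507, 1228, 1212, 1137 and 1169 CPM in cells of no class, with no common direction. These are descriptions, and no test was made between them.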
